A study of Mus musculus with 10 samples.

Results

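The 10 genes described here carry fatty acids from circulating lipoproteins into fat cells and bind them inside, and they were taken by symbol as a fixed set. They are Lpl, Gpihbp1, Lmf1 and Angptl4 (lipoprotein lipolysis), Vldlr, Cd36, Slc27a1 and Slc27a4 (import), and Fabp4 and Fabp5 (binding). All 10 symbols were found among the 30319 genes of the deposited table, and all 10 were among the 16932 genes tested, which are those with at least 1 TPM (a transcript level scaled for length and for the library's total) in at least 2 libraries. Total RNA of whole inguinal mammary fat pads from female FVB mice was sequenced after ribosomal RNA depletion. The FAP-/- mice (Null) lack Fap, which encodes fibroblast activation protein, a membrane-bound serine protease of activated fibroblasts. From 12 to 30 weeks of age they and wild-type mice (WT) received ingredient-matched diets with 60% (HFD) or 10% (LFD) of calories from fat. The groups are Null_HFD (n = 3), WT_HFD (n = 2), Null_LFD (n = 3) and WT_LFD (n = 2), stated by the submitters to be biological replicates. The labels do not say how the null allele was made, and whole pads mix fat cells with vessels, immune cells, epithelium and adjoining muscle.

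Lipoprotein lipase frees fatty acids from the triglycerides of chylomicrons and very-low-density lipoproteins at the capillary wall. Fat cells make the enzyme, a chaperone in their endoplasmic reticulum matures it, a glycolipid-anchored protein of endothelial cells carries it to the capillary lumen, and angiopoietin-like proteins inhibit it. The released fatty acids enter cells with the help of CD36 and of fatty acid transport proteins, which also have acyl-CoA synthetase activity, and small cytosolic fatty acid-binding proteins carry them onward.

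The libraries were uneven in tissue content. Sequencing depth is unknown, since TPM does not hold it. Summed TPM of 16 lymph node marker genes reached 3409 in Null_HFD 3 and 1229.7 in WT_HFD 2, against 24.8 to 50.4 in the other 8 libraries. Those libraries also had the lowest sums of 14 skeletal muscle genes, 126 and 269 TPM, against 2176 to 10997 TPM. The 17 mature adipocyte markers, which hold none of the 10 genes, were detected in every library and summed to 6082 TPM (Null_HFD 3) to 22022 TPM (WT_LFD 2). Fap itself measured 18.3 to 38.4 TPM in the 6 Null and 37.7 to 68.8 TPM in the 4 WT libraries, so its transcript stayed detectable in Null pads and the ranges overlapped slightly. In bulk tissue, fewer cells of a type and less RNA per cell cannot be told apart, and this applies to every difference below.

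The lipase and its partners were transcribed at very different levels. Lpl (chromosome 8, 68880491 to 68907448, plus strand, GRCm38, ENSMUSG00000015568.16) measured 2287, 3256 and 1335 TPM in Null_HFD libraries 1 to 3, 2567 and 1572 TPM in WT_HFD, 2084, 1019 and 1543 TPM in Null_LFD and 2189.8 and 2488 TPM in WT_LFD. Its rank among genes not encoded in mitochondria ran from 16 to 107. All 3 Null_LFD libraries lay below both WT_LFD libraries, while the HFD groups overlapped. The means were 1549 ± 533 TPM in Null_LFD (SD, n = 3) and 2339 ± 211 TPM in WT_LFD (SD, n = 2). The difference on the log2(TPM + 1) scale was -0.65 (SE 0.48), with a 95% interval from -1.72 to 0.42 and a limma adjusted p of 0.949.

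Gpihbp1, the endothelial carrier and anchor of the lipase (chromosome 15, 75596628 to 75599481, plus strand), measured 147, 147 and 64.8 TPM in Null_HFD, 123 and 128 TPM in WT_HFD, 129, 123 and 97.9 TPM in Null_LFD and 96.3 and 101 TPM in WT_LFD. Null_HFD 3 was the 1 library far below the rest, and both WT_HFD libraries lay above both WT_LFD libraries. Lmf1, which encodes lipase maturation factor 1, the chaperone of the endoplasmic reticulum (chromosome 17, 25579085 to 25662826, plus strand), stayed between 19.4 and 30.6 TPM. It was the steadiest of the 10 genes, with an SD over the 10 libraries of 0.207 on the log2(TPM + 1) scale, where the median gene tested had 0.398. Its values were 25.6, 27.4 and 21.7 TPM in Null_HFD and 30.3 and 29.0 TPM in WT_HFD, which did not overlap, and 23.2, 30.6 and 24.5 TPM in Null_LFD against 19.4 and 23.5 TPM in WT_LFD, which did.

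Angptl4, a secreted inhibitor of the lipase (chromosome 17, 33773750 to 33781830, minus strand), measured 430.0, 403 and 196 TPM in Null_HFD, 315 and 317 TPM in WT_HFD, 322, 286 and 294 TPM in Null_LFD and 236 and 253 TPM in WT_LFD. On the low-fat diet every Null library lay above both WT libraries, with means of 301 ± 19.3 TPM in Null_LFD (SD, n = 3) and 245 ± 12.0 TPM in WT_LFD (SD, n = 2). That is a difference of 0.29 (SE 0.32) on the log2(TPM + 1) scale, with a limma adjusted p of 0.949. Lpl and Angptl4 therefore stood on opposite sides in the same low-fat libraries. Within each library the log2 level of Lpl exceeded that of Angptl4 by 2.69, 1.83 and 2.39 in Null_LFD, against 3.21 and 3.29 in WT_LFD. On the high-fat diet the excess was 2.41, 3.01 and 2.76 in Null_HFD and 3.02 and 2.30 in WT_HFD, and the groups overlapped. Averaged over the diets the excess was lower in Null by 0.44 (difference -0.44), which did not pass an exact two-sided permutation test within diets (p = 0.18, adjusted p = 0.75 over 6 such tests, smallest possible p 0.01). Between the diets it differed by -0.08 (exact two-sided permutation p = 0.8, adjusted p = 0.96).

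**Figure D1:**
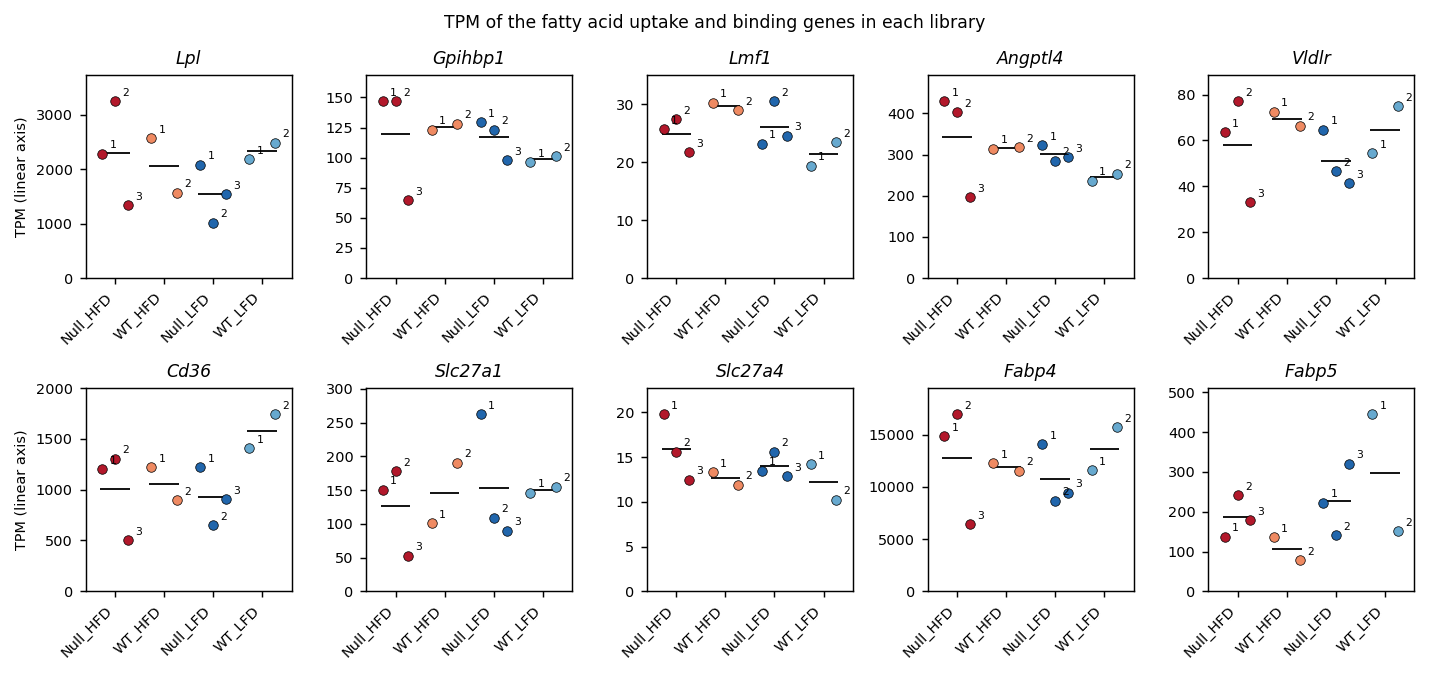
TPM (linear axis from 0) of each of the 10 genes in Null_HFD, WT_HFD, Null_LFD and WT_LFD libraries; each point is 1 library with its replicate number beside it, and the bar is the group mean of 2 or 3 libraries. Null_HFD 3 is the lowest of the 10 libraries for 6 genes, and Fabp5 has its highest value in WT_LFD 1 (445 TPM) and its lowest in WT_HFD 2 (78.3 TPM).

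Among the import genes, Cd36 was the most abundant. It encodes the scavenger receptor and fatty acid translocase CD36, found on fat cells, capillary endothelium, muscle and macrophages. Its annotated span is chromosome 5, 17781690 to 17888801, minus strand (ENSMUSG00000002944.15). The RefSeq promoter window of GRCm38.p6, chr5:17835847-17836146 on the minus strand, holds 300 bases around a RefSeq start site that lies inside that span, downstream of its 5′ end. It is shown because CD36 is a textbook target of the adipocyte nuclear receptor PPAR gamma, whose dimers with RXR bind paired copies of the hexamer AGGTCA. Capitals mark the single match to that hexamer, read here on the opposite strand as TGACCT, which begins at position -228 from that RefSeq start site.
Cd36 promoter: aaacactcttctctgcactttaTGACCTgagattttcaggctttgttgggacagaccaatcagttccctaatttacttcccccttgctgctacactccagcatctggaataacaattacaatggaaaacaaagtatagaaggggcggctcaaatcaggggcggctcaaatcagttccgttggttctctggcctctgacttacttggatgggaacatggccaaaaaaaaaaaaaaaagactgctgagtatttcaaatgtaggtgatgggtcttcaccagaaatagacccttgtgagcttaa
On both strands, 16.3% of the 32851 RefSeq promoter windows of the same length hold AGGTCA, and 0.0396% hold a direct repeat of AGGTCA spaced by 1 base of any kind, which the window of Cd36 does not. Windows were found for 5 of the 10 genes, and the single hexamer occurred in that of Cd36 and in none of the 7 windows of Slc27a4, Slc27a1, Lmf1 and Vldlr.

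Cd36 measured 1201, 1305 and 500.4 TPM in Null_HFD, 1218 and 898 TPM in WT_HFD, 1222, 653 and 905 TPM in Null_LFD and 1407 and 1741 TPM in WT_LFD. The WT_LFD libraries were the highest of all 10, with a mean of 1574 ± 236 TPM (SD, n = 2), set against 927 ± 285 TPM in Null_LFD (SD, n = 3) and 1058 ± 226 TPM in WT_HFD (SD, n = 2). Null minus WT on the low-fat diet came to -0.80 (SE 0.45, limma adjusted p = 0.949), the largest size of any of the 10 genes in that comparison. High-fat minus low-fat in WT came to -0.58 (SE 0.50, limma adjusted p = 0.769).

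Vldlr, a receptor for triglyceride-rich lipoproteins that contain apolipoprotein E (chromosome 19, 27216484 to 27254231, plus strand), measured 63.6, 77.1 and 33.1 TPM in Null_HFD, 72.5 and 66.4 TPM in WT_HFD, 64.7, 46.6 and 41.2 TPM in Null_LFD and 54.5 and 74.8 TPM in WT_LFD. Its groups overlapped in every comparison. Slc27a1, which encodes the fatty acid transport protein FATP1 of fat and muscle (chromosome 8, 71568882 to 71587302, plus strand), measured 150.4, 178 and 52.9 TPM in Null_HFD, 101 and 190.5 TPM in WT_HFD, 262, 109 and 89.9 TPM in Null_LFD and 146 and 155 TPM in WT_LFD. The Null_LFD group alone spanned 89.9 to 262 TPM, and the highest library was 4.96 times the lowest. Slc27a4 (FATP4) lies on chromosome 2, 29802634 to 29817522, the chromosome that also carries Fap at 62500943 to 62574075. It measured only 10.2 to 19.8 TPM, with 19.8, 15.6 and 12.5 TPM in Null_HFD, 13.3 and 11.9 TPM in WT_HFD, 13.5, 15.6 and 12.8 TPM in Null_LFD and 14.2 and 10.2 TPM in WT_LFD.

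The binding proteins differed widely in level. Fabp4, the fatty acid-binding protein of adipocytes (chromosome 3, 10204088 to 10208576, minus strand), measured 14858, 16944 and 6439 TPM in Null_HFD, 12279 and 11561 TPM in WT_HFD, 14088, 8684 and 9454 TPM in Null_LFD and 11596 and 15706 TPM in WT_LFD. It held 0.678% to 1.79% of all TPM and ranked 2 to 7 among genes not encoded in mitochondria. Fabp5, the related protein known from epidermis and macrophages as well as fat, lies on the same chromosome (10012548 to 10016607, plus strand). It measured 137, 242 and 179 TPM in Null_HFD, 136 and 78.3 TPM in WT_HFD, 223, 141 and 320.4 TPM in Null_LFD and 445 and 152 TPM in WT_LFD. Fabp5 was the most variable of the 10 genes, with an SD over the libraries of 0.712 on the log2(TPM + 1) scale, larger than that of 82.7% of the genes tested.

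On the high-fat diet all 3 Null libraries had more Fabp5 than both WT libraries, with means of 186 ± 52.5 TPM in Null_HFD (SD, n = 3) and 107 ± 40.8 TPM in WT_HFD (SD, n = 2). The difference of 0.81 (SE 0.50) on the log2(TPM + 1) scale did not pass (limma adjusted p = 1), and it was 0.41 without WT_HFD 2 and 1.20 without WT_HFD 1. In WT pads both high-fat libraries lay below both low-fat libraries, by -1.32 (SE 0.55, 95% interval -2.57 to -0.08). No other difference among the 10 genes had an unadjusted p under 0.05, and this one did not pass (limma adjusted p = 0.761). Without WT_LFD 1 it was -0.55, without WT_LFD 2 it was -2.10, and without WT_HFD 2, the lymph node-rich library, it was -0.93. The interaction of genotype and diet for Fabp5 came to 1.07 (SE 0.71, limma adjusted p = 1), and ranged from 0.30 without WT_LFD 1 to 1.85 without WT_LFD 2. Within each library, log2 Fabp5 minus log2 Fabp4 was -6.75, -6.13 and -5.16 in Null_HFD, -6.49 and -7.19 in WT_HFD, -5.98, -5.94 and -4.88 in Null_LFD and -4.70 and -6.68 in WT_LFD. That difference did not separate Null from WT (0.46 on average, exact two-sided permutation p = 0.41, adjusted p = 0.82) or HFD from LFD (-0.78, exact two-sided permutation p = 0.25, adjusted p = 0.75).

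**Figure D2:**
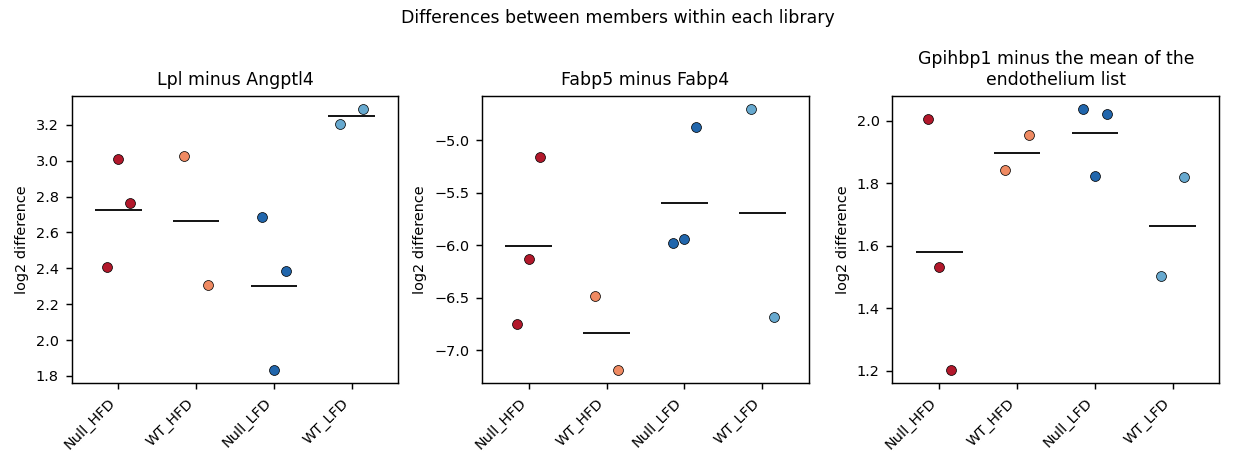
Log2 difference between 2 levels within each library for Lpl and Angptl4, for Fabp5 and Fabp4, and for Gpihbp1 and the mean of 15 endothelial markers; each point is 1 library, the bar is the group mean, and the vertical axes do not start at 0. The Null_LFD libraries lie at 1.83 to 2.69 for Lpl minus Angptl4, below the WT_LFD libraries at 3.21 and 3.29, while Null_HFD and WT_HFD overlap.

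Whether the loss of Fap was accompanied by a change of the set was asked over both diets, in 6 Null against 4 WT libraries. Limma called none of the 10 genes at an adjusted p of at most 0.05, 0 had an unadjusted p under 0.05, and 0% of the 16932 genes tested were called, of which 709 had an unadjusted p under 0.05. Differences on the log2(TPM + 1) scale ran from -0.49 (Cd36) to 0.27 (Fabp5), 5 genes lay higher and 5 lower, and the median was -0.09 beside 0.08 over all genes tested, of which 63.5% lay higher. The interval for Cd36 reached from 0.431-fold to 1.17-fold of WT, that for Lpl from 0.488-fold to 1.40-fold, and that for Fabp4 from 0.402-fold to 1.91-fold. For Lmf1 it reached from 0.806-fold to 1.26-fold, and for Slc27a4 from 0.895-fold to 1.57-fold. None of the 10 genes had Null and WT libraries that did not overlap, against 0.921% of all genes tested. Without both lymph node-rich libraries the difference was -0.38 for Cd36, 0.35 for Angptl4 and 0.28 for Slc27a1, the last of which was -0.22 with them.

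Within the low-fat diet 3 of the 10 genes had groups that did not overlap (Lpl and Cd36 below WT, Angptl4 above), beside 25.4% of all genes tested, and 0 were called, as were 0% of all genes. The same libraries differed in other tissue markers. Null_LFD libraries had 3828 to 10997 TPM of the 14 skeletal muscle genes against 2176 to 3255 TPM in WT_LFD, 2028 to 4052 TPM of the 13 luminal epithelial genes against 639 to 1426 TPM, and 1097 to 1463 TPM of the 13 macrophage genes against 874 to 947 TPM. No muscle or macrophage gene was at 0 in any of these libraries, while 1 luminal gene was at 0 in each WT_LFD library. The 17 adipocyte markers summed to 9703 to 15642 TPM in Null_LFD and 13178 to 22022 TPM in WT_LFD. The part of the muscle, epithelial and macrophage markers in the differences of Lpl, Cd36 and Angptl4 was not tested. The adipocyte list was fitted as a covariate, with values given below. Within the high-fat diet Fabp5 (above WT) and Lmf1 (below WT) did not overlap between the genotypes, 2 of 10 genes beside 15.5% of all genes, and none was called, beside 0.0118% of all genes.

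Diet was compared in 5 HFD against 5 LFD libraries. None of the 10 genes was called and 0 had an unadjusted p under 0.05, as 0% of all genes tested were called although 1641 had an unadjusted p under 0.05. Differences ran from -0.79 (Fabp5, SE 0.36, limma adjusted p = 0.517) to 0.24 (Angptl4, SE 0.22, limma adjusted p = 0.692). The median was 0.12 beside 0.11 over all genes tested. No gene of the set had HFD and LFD libraries that did not overlap, against 2% of all genes. Fabp4 differed by -0.01 with an interval from 0.456-fold to 2.16-fold of LFD, and Lpl by 0.16 with an interval from 0.660-fold to 1.89-fold. Lymph node markers summed to 49.0 to 3409 TPM in HFD libraries and 24.8 to 41.0 TPM in LFD libraries, and their part in these values was not tested. Without both lymph node-rich libraries the difference was -0.59 for Fabp5, 0.51 for Lpl, 0.23 for Fabp4 and 0.06 for Cd36, which had been -0.27 with them.

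In Null pads alone the diets overlapped for all 10 genes, while 11.1% of all genes tested did not overlap, and none of the set was called beside 0.00591% of all genes. The differences ran from -0.28 (Slc27a1) to 0.53 (Lpl, SE 0.43, limma adjusted p = 0.817), and without Null_HFD 3 that of Lpl was 0.88. In WT pads, with 2 libraries on each diet, 5 of the 10 genes did not overlap, beside 45.1% of all genes, with Gpihbp1, Lmf1 and Angptl4 higher on HFD and Cd36 and Fabp5 lower. None was called, as was the case for 0% of all genes. Lmf1 differed most upward, at 0.45 (SE 0.22, limma adjusted p = 0.761). No interaction of genotype and diet was called in the set or among all genes (0%), and its values ran from -0.51 (Lmf1, SE 0.29) to 1.07 (Fabp5), with 0.75 (SE 0.67) for Lpl and 0.62 (SE 0.64) for Cd36.

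**Figure D3:**
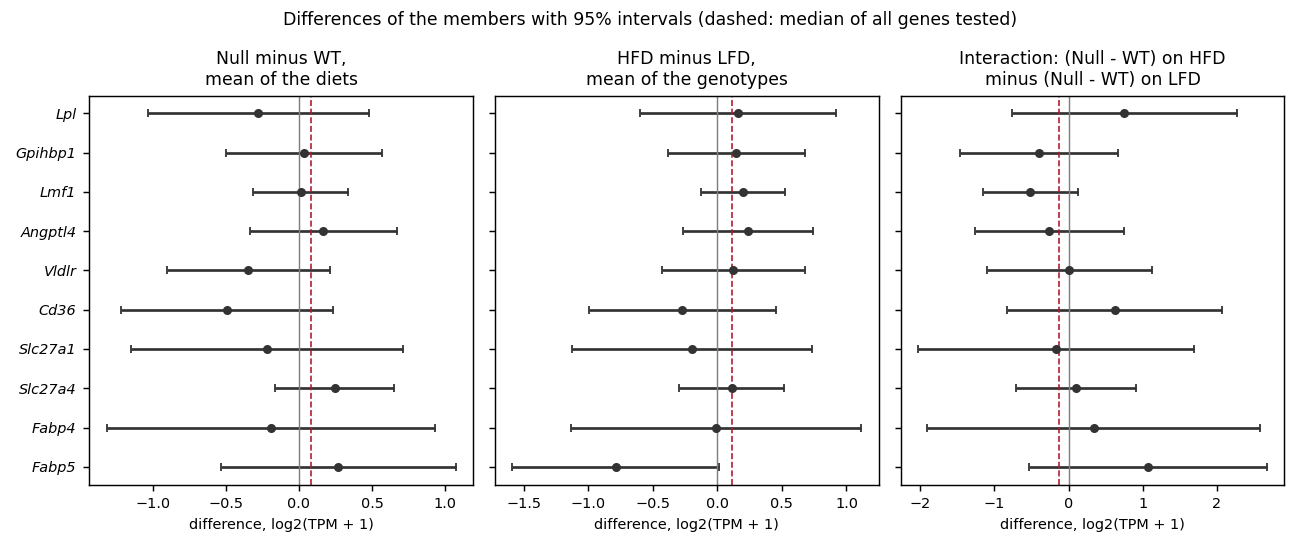
Differences on the log2(TPM + 1) scale with 95% intervals from limma for the 10 genes, for Null minus WT averaged over the diets, HFD minus LFD averaged over the genotypes, and their interaction; the solid line is 0 and the dashed line is the median of the 16932 genes tested. Every interval includes 0, and that of Fabp5 between the diets ends at 0.01.

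Some of the 10 genes followed the level of fat cell transcripts from library to library. Across the 10 libraries, Fabp4 followed the mean log2 level of the 17 mature adipocyte markers most closely, with Pearson r = 0.957 (permutation p = 8e-05, adjusted p = 0.0024 over 30 relations) and Spearman rho = 0.964 (permutation p = 9e-05, adjusted p = 0.0027). Lpl had r = 0.874 (permutation p = 0.00113, adjusted p = 0.00847) and rho = 0.915 (permutation p = 0.00042, adjusted p = 0.0063). For Cd36, r was 0.882 (permutation p = 0.00094, adjusted p = 0.00847) and rho 0.745 (permutation p = 0.0168, adjusted p = 0.101), and for Vldlr r was 0.877 (permutation p = 0.00094, adjusted p = 0.00847) and rho 0.758 (permutation p = 0.0143, adjusted p = 0.101). The 2 libraries farthest from the median of the list were Null_HFD 2 and Null_HFD 3. Without them r was 0.883 for Fabp4, 0.927 for Lpl, 0.815 for Cd36 and 0.702 for Vldlr. Without the lymph node-rich libraries WT_HFD 2 and Null_HFD 3, r was 0.931, 0.945, 0.743 and 0.863 in the same order, with permutation p of 0.012 for Fabp4 and for Lpl, 0.213 for Cd36 and 0.0574 for Vldlr, each adjusted over 30 relations.

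The other 6 genes passed with the adipocyte list neither by r nor by rho. Relations to this list were tested for genes of the set only. What share of all genes would pass was not tested, so following the list is not shown to be particular to the set. Gpihbp1 (r = 0.748, permutation adjusted p = 0.0713), Angptl4 (0.743, permutation adjusted p = 0.0713) and Slc27a1 (0.659, permutation adjusted p = 0.169) had r of 0.219, 0.364 and 0.217 once Null_HFD 2 and Null_HFD 3 were left out. Those libraries are the highest and lowest for the list, so leaving them out also narrows its range. Without WT_HFD 2 and Null_HFD 3, r was 0.504, 0.583 and 0.443 in the same order. Slc27a4 (0.292), Lmf1 (0.178) and Fabp5 (0.0683) had the lowest r, and Spearman rho of 0.394, 0.0667 and 0.0424. With the 15 endothelial markers no gene passed, and Gpihbp1 had the highest r, 0.644 (permutation p = 0.0562, adjusted p = 0.211; rho = 0.673, permutation p = 0.0383, adjusted p = 0.191; r = 0.732 without the 2 farthest libraries, Null_HFD 2 and Null_LFD 3). Slc27a4 had a lower r of 0.561 (permutation p = 0.0915, adjusted p = 0.238) but the highest rho, 0.794 (permutation p = 0.00874, adjusted p = 0.0874), and r = 0.791 without those libraries. With the skeletal muscle list, where WT_HFD 2 and Null_HFD 3 form a separate cluster, r within the other 8 libraries ran from -0.514 (Cd36) to 0.446 (Slc27a1), and none passed. All points of these relations share the library and its TPM scaling.

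**Figure D4:**
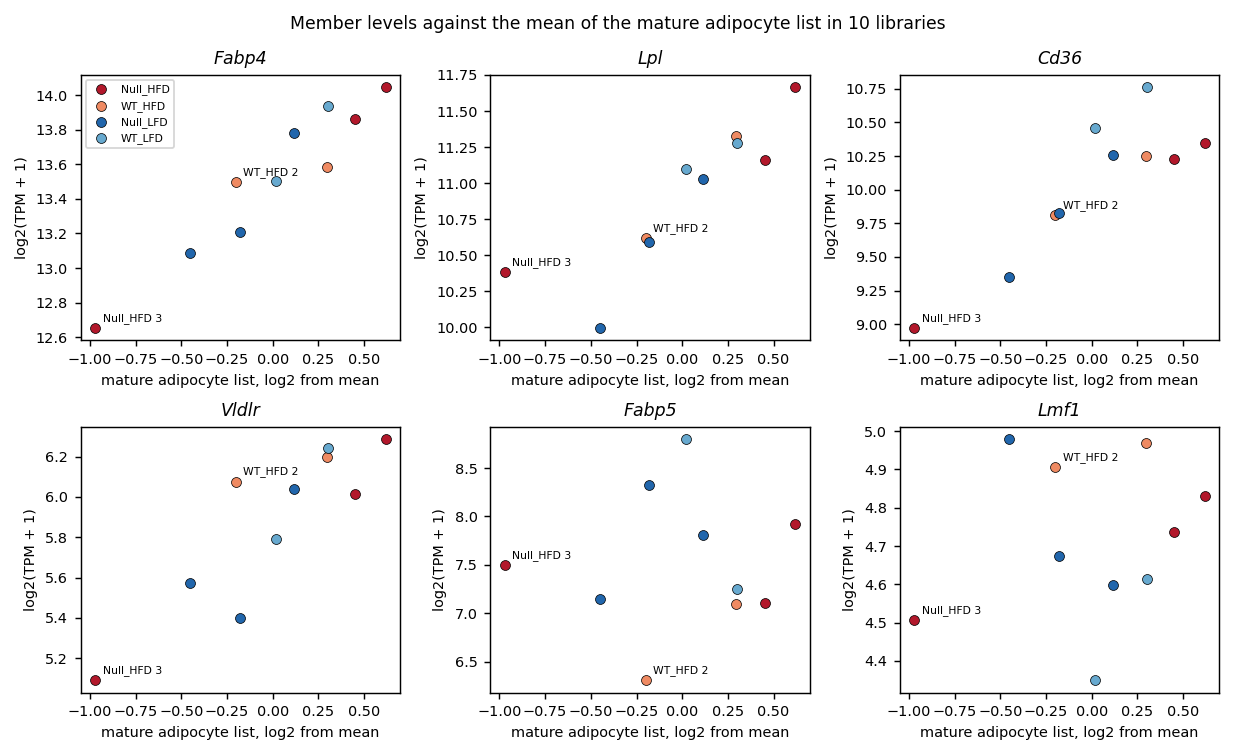
Level of 6 of the 10 genes, log2(TPM + 1), against the mean of 17 mature adipocyte markers in the same library, given as the log2 distance from the mean of the 10 libraries; each point is 1 library, coloured by group. Fabp4 and Lpl follow the list by Pearson r (0.957 and 0.874) and by Spearman rho. Cd36 and Vldlr follow it by r (0.882 and 0.877), but their rho did not pass (permutation adjusted p = 0.101 for each). Fabp5 (r = 0.0683) and Lmf1 (r = 0.178) do not follow it.

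With the adipocyte list as a covariate, an analysis chosen after the data were seen, none of the 10 genes was called. Null minus WT over both diets was then -0.33 (SE 0.12) for Cd36 and 0.27 (SE 0.12) for Angptl4, with unadjusted limma p of 0.0273 and 0.0478 and adjusted p of 0.715 and 0.788. In that comparison 1071 of the 16932 genes tested had an unadjusted limma p under 0.05, and 0 were called. Over both diets Fabp4 came to -0.04 (SE 0.19) and Lpl to -0.13 (SE 0.17). Within the low-fat diet Null minus WT was -0.49 (SE 0.18, limma adjusted p = 0.751) for Cd36 and 0.50 (SE 0.17, limma adjusted p = 0.732) for Angptl4. For Lpl it was -0.37 (SE 0.25, limma adjusted p = 0.857). Without the covariate these differences were -0.80, 0.29 and -0.65 in the same order. Set against endothelial markers, Gpihbp1 lay 2.01, 1.53 and 1.20 above their mean log2 level in Null_HFD, 1.84 and 1.95 in WT_HFD, 2.04, 1.82 and 2.02 in Null_LFD and 1.502 and 1.821 in WT_LFD. That distance differed by -0.01 between the genotypes (exact two-sided permutation p = 0.98, adjusted p = 0.98) and by -0.07 between the diets (exact two-sided permutation p = 0.733, adjusted p = 0.96).

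The rest of the pathway was followed in 47 genes on 4 lists, of which 42 were tested and 0 were called in any of the 7 comparisons. Of all genes tested, 0% to 0.0118% were called, depending on the comparison. Among other lipases, activators and inhibitors of the lipase, 5 of 10 tested genes lay higher on HFD over both genotypes, beside 63.4% of all genes tested (median 0.08, beside 0.11 over all genes). The smallest p values there belonged to Apoe, an apolipoprotein ligand of lipoprotein receptors, and to Sel1l, an endoplasmic reticulum protein known to help the lipase mature. Apoe measured 2429, 2462 and 2587 TPM in Null_HFD, 2677 and 3101 TPM in WT_HFD, 2308, 1763 and 1804 TPM in Null_LFD and 1269.5 and 1652 TPM in WT_LFD, and no HFD library overlapped with an LFD library (difference 0.68, SE 0.22, limma adjusted p = 0.513). Sel1l ran from 60.1 to 77.2 TPM on HFD and from 47.8 to 59.4 TPM on LFD (0.37, SE 0.13, limma adjusted p = 0.513). Among lipoprotein receptors, other transporters and caveolar genes, 9 of 14 lay higher in Null over both diets, beside 63.5% of all genes tested (median 0.18, beside 0.08). The smallest p belonged to Got2, a mitochondrial aminotransferase also described as a fatty acid-binding protein of the plasma membrane (0.39, SE 0.18, limma adjusted p = 0.98).

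Among other fatty acid-binding proteins and acyl-CoA synthetases, 8 of 11 tested genes lay lower on HFD, while 63.4% of all genes tested lay higher (median -0.22, beside 0.11 over all genes). Some of these 11 genes were near the floor, such as Fabp12 with group means of 0.173 (WT_HFD) to 0.673 TPM (Null_LFD). Acsbg1, an acyl-CoA synthetase, had the smallest p (0.78, SE 0.39, limma adjusted p = 0.533) and Acsl4, a synthetase that prefers arachidonate, the next (-0.39, SE 0.23, limma adjusted p = 0.555). Acsbg1 measured 8.64 and 21.2 TPM in WT_HFD and 1.98 and 5.93 TPM in WT_LFD, with its highest value in the lymph node-rich WT_HFD 2. Its means in Null pads were close, at 4.85 TPM in Null_HFD and 5.15 TPM in Null_LFD. Of 7 nuclear receptors, 4 lay higher on HFD, beside 63.4% of all genes tested (median 0.12). Rxra, the partner of the PPAR receptors, measured 54.5, 57.5 and 34.9 TPM in Null_HFD, 39.6 and 47.3 TPM in WT_HFD, 33.1, 31.4 and 26.6 TPM in Null_LFD and 33.1 and 33.5 TPM in WT_LFD. No library overlapped between the diets (0.51, SE 0.17, limma adjusted p = 0.513). Nr1h3, which encodes the oxysterol receptor LXR alpha, lay on the other side (-0.33, SE 0.13, limma adjusted p = 0.513), with 49.3 to 67.02 TPM on HFD and 60.2 to 79.5 TPM on LFD, which overlapped.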

How the data were processed

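Values were read as deposited by the authors, 1 log2(TPM + 1) value per gene symbol and library, a unit inferred from the values (lowest value 0, TPM sums of 946103 to 954463). The submitters' processing notes name kallisto, limma and GRCm38, with versions not given in the sources used here. Genes, lists and tests were chosen with earlier results of these data known. The 16932 genes that reached 1 TPM in 2 or more libraries were fitted with limma 3.58.1 in R 4.3.3 as 4 group means, with a trend of variance on mean level (6 residual degrees of freedom). Tests are two-sided, with Benjamini-Hochberg adjustment over all genes of a comparison. SDs are of TPM, and fold intervals are limma's 95% intervals taken from the log2 scale. Levels within a library and relations to marker lists were tested by permutation with scipy 1.17.1 (all 100 or 120 arrangements, or 100000 resamples). Apart from Fabp12 and the genes under other observations, named pathway genes are the 2 with the smallest p per list in each averaged comparison. The text gives a part of them. Coordinates are from GENCODE M21 (GRCm38), and 2 pathway genes and 1 marker were found under older symbols. Limma p values set a difference against the spread between these libraries within groups. Permutation p values count rearrangements of these libraries, and for the relations to marker lists the libraries were shuffled across the groups. The fit was tested on simulated data. A result on 1 pathway gene is not reported here.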

Additional observations from a re-analysis of the deposited data

How the results depend on the processing

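None of the 10 genes was called in any of the 7 comparisons under any of the 21 alternatives (2 pseudocounts, 2 filters, 2 scalings, no variance trend, sample weights, the replicate block, leaving out both lymph node-rich libraries or each library in turn, and the adipocyte covariate), and the smallest adjusted p among them was 0.198 (Cd36 between the diets, averaged over the genotypes, with the adipocyte covariate). With all 10 libraries kept, at most 18 of 23065 genes were called in a comparison (Null minus WT on HFD, no filter on low values). Deviations of same-numbered libraries from their group means correlated from -0.346 to 0.412 across genes. With 2 or 3 libraries in a group, these values cannot decide whether the replicate numbers pair the samples. The replicate block changed no call of a gene of the set (0 called), and turned the averaged Null minus WT difference of Slc27a1 to 0.203 and of Fabp4 to 0.0631, and Gpihbp1 against endothelium to 0.0698 (genotype) and 0.0376 (diet). The median of all genes was 0.146 for Null minus WT on LFD and 0.197 for HFD minus LFD in WT, against 0.0137 and 0.0168 with median-of-ratios scaling. That scaling turned Gpihbp1 (-0.0449) and Lmf1 (-0.0644) over genotype and Vldlr (-0.0124) and Slc27a4 (-0.0172) over diet. Without mitochondrially encoded genes Gpihbp1 (-0.0128) and Lmf1 (-0.0333) turned over genotype. Sample weights turned Slc27a1 over genotype (0.0124), in the interaction (0.15) and between the diets in Null (0.0352), and Fabp4 over diet (0.15). The adipocyte covariate turned the interaction of Vldlr (-0.219). Without both lymph node-rich libraries, Slc27a1 (0.28) and Fabp4 (0.00363) turned over genotype, Cd36 (0.0594) and Fabp4 (0.23) over diet, Gpihbp1 (0.0201), Angptl4 (0.109) and Slc27a1 (0.823) in the interaction, Slc27a1 between the diets in Null (0.254), Gpihbp1 against endothelium over genotype (0.114) and Lpl minus Angptl4 over diet (0.092). The r with the adipocyte list turned to -0.0237 for Lmf1 and -0.161 for Fabp5, and that with the muscle list to -0.366 for Lpl, -0.221 for Vldlr, -0.514 for Cd36 and -0.188 for Fabp4. The cause of these turns was not tested.

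With each library left out in turn, averaged Null minus WT differences that turned ranged from -0.0638 to 0.228 (Gpihbp1), -0.0546 to 0.0781 (Lmf1), -0.449 to 0.0526 (Slc27a1), -0.324 to 0.0254 (Fabp4) and -0.117 to 0.656 (Fabp5). Averaged diet differences ranged from -0.0184 to 0.335 (Lpl), -5.7e-05 to 0.299 (Vldlr), -0.426 to 0.0695 (Slc27a1), -0.000406 to 0.219 (Slc27a4) and -0.141 to 0.208 (Fabp4). Interactions ranged from -0.462 to 0.103 (Angptl4), -0.238 to 0.361 (Vldlr), -0.623 to 0.369 (Slc27a1) and -0.114 to 0.324 (Slc27a4). Vldlr on HFD ranged from -0.586 to 0.0124 and Slc27a1 between the diets in Null from -0.613 to 0.254. Fabp5 minus Fabp4 over genotype ranged from -0.0347 to 0.957, Gpihbp1 against endothelium from -0.116 to 0.0852 (genotype) and -0.179 to 0.0222 (diet), and Lpl minus Angptl4 over diet from -0.26 to 0.101. Leaving out a WT library leaves its group with 1 library, which is then assumed to vary like the other groups.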

Other observations

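Some genes outside the set but in the same pathway varied widely between libraries, and those named here were chosen after their values were seen. Fabp3, the fatty acid-binding protein of heart and oxidative muscle that is also found in brown fat, measured 179, 28.4 and 1.53 TPM in Null_HFD, 151 and 8.74 TPM in WT_HFD, 144, 59.2 and 32.3 TPM in Null_LFD and 36.1 and 241 TPM in WT_LFD. Its highest value stood in WT_LFD 2, which had the smallest skeletal muscle sum (2176 TPM) on that diet. Its lowest values stood in Null_HFD 3 and WT_HFD 2, which had the smallest muscle sums of all libraries (126 and 269 TPM). Angptl8, a secreted partner of lipase inhibition that is listed in the file under the older symbol Gm6484, measured 13.1, 14.5 and 9.0 TPM in Null_HFD, 11.4 and 3.97 TPM in WT_HFD, 17.3, 12.6 and 20.6 TPM in Null_LFD and 53.1 and 7.00 TPM in WT_LFD. WT_LFD 1 was the highest of the 10 libraries for Angptl8, as it was for Fabp5, and WT_LFD 2 had 7.00 TPM of Angptl8 and 152 TPM of Fabp5.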
